A study of Homo sapiens with 48 samples.

Results

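The genes described here are T, CDX2, HAND1 and FOXF1, transcription factors that are used as markers of early mesoderm. They were read with every probe whose name carries one of these symbols, which gave 9 of the 1113 probes and 4 of the 452 genes on the panel. T is the older symbol of TBXT and the symbol the files use. T, HAND1 and FOXF1 had 2 probes each and CDX2 had 3. The assay was RASL-Seq, which reads a chosen panel of transcripts: poly(A) RNA is captured, probe pairs that meet on the same transcript are joined, and the joined pairs are sequenced and counted. The study asked how 2 treatments given while embryoid bodies (EBs) form affect the EBs, and used directed differentiations of the same cells as lineage references.

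All 48 libraries came from WA09, also called H9, a long-established line of human embryonic stem cells whose genotype is given as normal. Untreated stem cells (hESC) gave 4 libraries. The ectoderm group (4 libraries) was treated for 6 days in Essential 6 (E6) medium with 100 nM LDN-193189, an inhibitor of BMP type I receptors, and 2 µM A83-01, an inhibitor of TGF-beta type I receptors. The mesoderm group (4 libraries) was cultured for 5 days in STEMdiff Mesoderm Induction Medium, and the endoderm group (4 libraries) for 5 days with the STEMdiff Definitive Endoderm Kit. Both are commercial products whose active components the labels do not list. The EB groups (16 libraries each) were made from dissociated cells at 20000 cells per well and kept in E6 medium for 7 days. They differed in the first 24 hours, when the Y27 EBs received the small molecule Y-27632 and the CEPT EBs received CEPT, a cocktail of chroman 1, emricasan, polyamines and trans-ISRIB that protects dissociated cells. The labels do not say whether replicates were separate cultures, so p-values measure the spread between these libraries, which may be technical. They also do not say whether EB and reference libraries were prepared together, and a difference between preparations cannot be told apart from a difference between those groups.

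T encodes a T-box factor that WNT signalling switches on in the primitive streak, the region through which cells leave the pluripotent epiblast to form mesoderm and endoderm. It falls again as cells move away from the streak and stays on in the notochord. CDX2 is a caudal-type homeobox factor of the posterior body, where it acts upstream of posterior HOX genes, and it also marks trophectoderm and gut epithelium. HAND1 is a basic helix-loop-helix factor of extraembryonic and lateral plate mesoderm and of the early heart, and is also active in trophoblast. FOXF1 is a forkhead factor of extraembryonic, lateral plate and splanchnic mesoderm.

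Total reads per library ranged from 379810 to 5577868, with a median of 3583316. Only Y27 EB replicate 15 lay under 0.25 of that median, and the next lowest library held 1773969 reads. Levels are given as CPM, the counts relative to library size, with TMM factors over all 48 libraries. On that scale 3 reads, the number that a count of 0 allows, correspond to between 0.414 and 1.95 CPM in the libraries other than Y27 EB replicate 15, and to 6.44 CPM in that library. The labels describe no molecular identifiers, so such limits cover counting error only. Probes differ in efficiency, so levels were compared between groups for 1 probe and not between probes or genes. In bulk libraries, fewer cells that express a gene and less RNA per cell cannot be told apart.

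**Figure D1:**
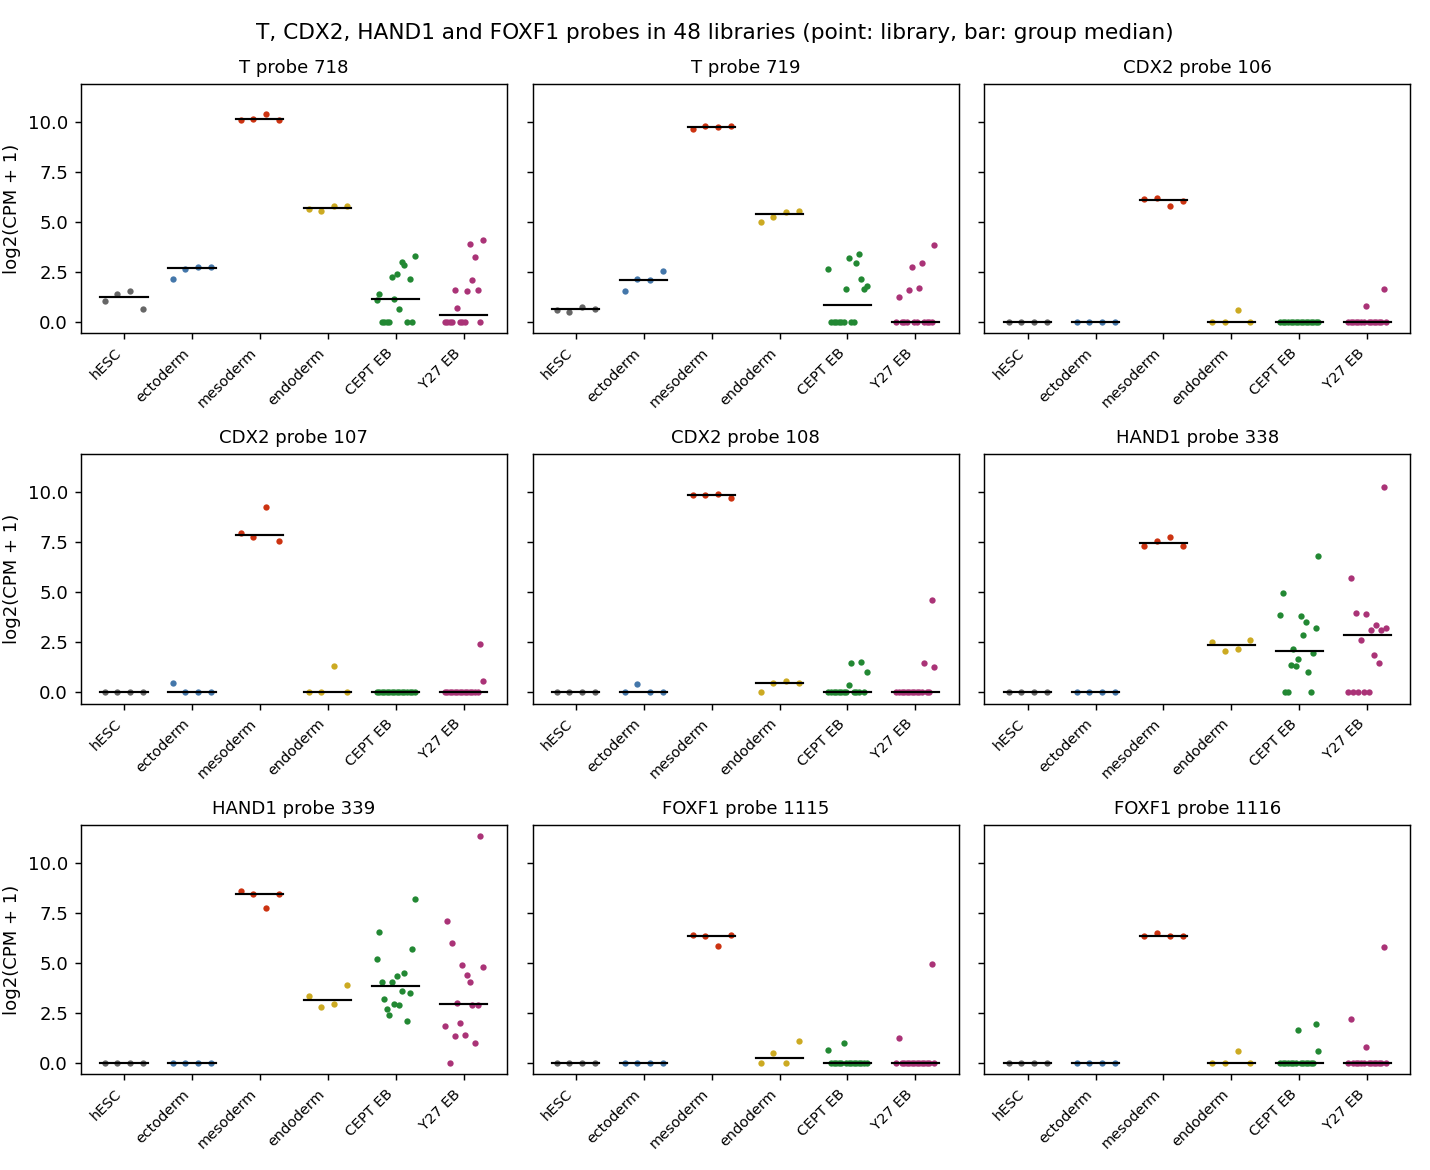
Level of each probe in every library, as log2(CPM + 1) on the vertical axis, with the 6 groups on the horizontal axis; points are libraries and bars are group medians. All 9 probes are highest by median in the mesoderm group, and the HAND1 probes reach the highest levels in the EB groups, where Y27 EB replicate 15 lies above every mesoderm library.

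The mesoderm group was compared first, since it shows what the probes read in cells driven toward this lineage. All 9 probes were higher in mesoderm than in hESC by the quasi-likelihood test of edgeR, with p-values adjusted by Benjamini-Hochberg over the 903 probes tested, in which 34.0% of all probes were called higher. Every mesoderm library lay above every hESC library for all 9 probes, as did 36.5% of the probes tested. The CDX2 and FOXF1 probes had 3 reads or fewer in every hESC, ectoderm and endoderm library. Only mesoderm gave them enough reads to be tested. Their calls and lack of overlap against these groups were thus set in advance, and the counts of 9 are no support for them. In 7 of the 9 probes hESC gave 0 reads in all 4 libraries, and the exceptions were both probes of T.

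For T, probe 718 gave 1096, 1108, 1333 and 1095 CPM in mesoderm replicates 1 to 4, against 1.04, 1.67, 1.95 and 0.563 CPM in the hESC libraries. These hESC values are 1 to 4 reads per library, and probe 719 gave 1 read in each. T was therefore near the counting limit in the stem cells, and the groups did not overlap. Probe 718 was 887-fold higher in mesoderm by group means, a log2 difference of 9.49 (SE 0.17, adjusted p = 7.22e-19). Probe 719 gave 842 ± 43.8 CPM in mesoderm (SD, n = 4) and was also called higher (adjusted p = 4.07e-18), but with 1 read in each hESC library no fold is given for it.

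CDX2 was read by 3 probes that behaved unequally. Probe 108 gave 922, 920, 942 and 828 CPM in mesoderm replicates 1 to 4, and probe 106 gave 69.8, 71.1, 55.1 and 63.6 CPM. Probe 107 gave 244, 219, 610 and 185 CPM, so that replicate 3 stood far above the other replicates for this probe alone. Its mean was 314 ± 198 CPM (SD, n = 4), and 216 ± 29.6 CPM (SD, n = 3) without replicate 3. Against the 3 reads per library allowed in hESC, where no CDX2 read was found, CDX2 was at least 40.2-fold higher for probe 106, at least 195-fold higher for probe 107 and at least 560-fold higher for probe 108. The adjusted p-values from edgeR's test were 1.44e-09, 5.14e-08 and 7.16e-16.

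HAND1 also had no read in hESC. Probe 338 gave 160, 186, 218 and 157 CPM in mesoderm replicates 1 to 4, and probe 339 gave 388, 350, 212 and 347 CPM. The 2 probes thus ordered replicate 3 differently, highest for probe 338 and lowest for probe 339. HAND1 was at least 112-fold higher than in hESC for probe 338 (adjusted p = 6.63e-12 by edgeR's test) and at least 201-fold higher for probe 339 (adjusted p = 5.19e-10).

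For FOXF1, probe 1115 gave 81.9, 79.9, 56.0 and 81.4 CPM in mesoderm replicates 1 to 4. Probe 1116 gave 80.8, 89.8, 79.3 and 79.1 CPM. With no hESC read, FOXF1 was higher in mesoderm by at least 46.4-fold for probe 1115 (adjusted p = 4.98e-09 by edgeR's test) and by at least 51.0-fold for probe 1116 (adjusted p = 3.02e-10).

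Mesoderm replicate 3 divided its reads between probes of 1 gene differently from the other 3 libraries. CDX2 probe 107 took 37.9% of the CDX2 reads there and 17.2% to 19.7% in the others. For HAND1, probe 338 took 50.8% of the reads in replicate 3, and its median share over the 4 libraries was 32.9%. The shares of T probe 718, 55.6% to 61.3%, were also highest in replicate 3. Summed over the probes of a gene, the mesoderm levels were 1282 ± 227 CPM for CDX2, 505 ± 53.1 CPM for HAND1, 2000 ± 126 CPM for T and 157 ± 15.02 CPM for FOXF1 (SD, n = 4).

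Because the genes were called together in mesoderm, the stretches just upstream of their transcription starts were read from RefSeq's promoter table (GRCh38.p14, where the submitters' processing notes name hg38). TBXT (T) lies at chr6:166157656-166168655, CDX2 at chr13:27960918-27969315 and HAND1 at chr5:154474972-154478227, all on the minus strand, and FOXF1 lies at chr16:86510527-86515422 on the plus strand. Upstream sequence of FOXF1 was not analysed here. For the other 3 genes there were 4 windows of 250 bases, 2 of them at separate start sites of TBXT. The capitals below mark the hexamer CTTTGA or its reverse TCAAAG, the core bound by TCF/LEF factors of the WNT pathway. It was found in 3 of the 4 windows, and in 11.2% of all 35116 windows of that length. Bases that GENCODE places in an exon were left out, and for CDX2, whose window lies in the first exon of a longer transcript, 30 bases around the match are shown.
HAND1 (chr5:154478265-154478477, minus strand): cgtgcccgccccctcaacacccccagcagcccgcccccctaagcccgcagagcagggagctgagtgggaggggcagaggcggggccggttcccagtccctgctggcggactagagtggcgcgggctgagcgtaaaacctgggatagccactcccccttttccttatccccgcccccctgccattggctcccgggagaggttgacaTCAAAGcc
TBXT, downstream start site (chr6:166167878-166168101, minus strand): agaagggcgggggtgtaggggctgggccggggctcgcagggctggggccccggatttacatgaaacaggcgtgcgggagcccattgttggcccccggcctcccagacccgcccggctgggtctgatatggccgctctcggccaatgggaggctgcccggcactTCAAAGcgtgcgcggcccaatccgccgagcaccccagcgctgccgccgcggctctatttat
CDX2 (chr13:27969536-27969565, minus strand): cttgatttcattCTTTGAacctgtgattgg
The hexamer began 45 bases before the HAND1 start, 87 bases before the downstream TBXT start and 238 bases before the CDX2 start. Besides CTTTGA, 6 other motifs were searched on both strands. The CDX motif CAATAAA, which 3.67% of all windows hold, the forkhead motif GTAAACA (2.98%) and the GATA motif AGATAA (9.17%) each matched only the CDX2 window, and TATAAA (10.7%) matched only the upstream TBXT window. The T-box site GGTGTGA (2.76%) and the E-box CATCTG (12.2%) had no match in the 4 windows. In the CDX2 window the matches began 13 (GTAAACA), 119 (AGATAA), 181 (CAATAAA) and 238 (CTTTGA) bases before the start, so none overlapped. A match describes the letters and not binding.

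Against ectoderm, all 9 probes were again higher in mesoderm, where 38.2% of the 903 probes tested were called higher. For CDX2 and FOXF1 this direction was again set in advance, since only mesoderm gave them enough reads to be tested. HAND1 and FOXF1 had no read in ectoderm, which made them at least 159-fold and 285-fold higher for the HAND1 probes and at least 65.8-fold and 72.3-fold higher for the FOXF1 probes. CDX2 had 1 read of probe 107 and 1 read of probe 108 in the 4 ectoderm libraries together. Both of these CDX2 probes were called (adjusted p = 2.69e-08 and 5.06e-16 by edgeR's test), with no fold given against so few reads. T was 232-fold (probe 718) and 250.5-fold (probe 719) higher in mesoderm than in ectoderm by group means.

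Endoderm was the nearest of the other references. All 9 probes were higher in mesoderm than in endoderm, where 37.2% of the probes tested were called higher, but T and HAND1 were not at the limit in endoderm. T probe 718 gave 48.4, 45.1, 53.3 and 53.2 CPM in endoderm replicates 1 to 4, so it was 23.2-fold lower than in mesoderm. HAND1 probe 339 gave 8.99, 6.04, 6.60 and 13.6 CPM, 36.8-fold lower than in mesoderm. The corresponding log2 differences were 4.36 (SE 0.11, adjusted p = 3.68e-17) for T and 5.03 (SE 0.28, adjusted p = 2.88e-09) for HAND1 by edgeR's test. CDX2 and FOXF1 stayed at 3 reads or fewer per probe in every endoderm library, so their direction here too was set in advance.

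The other references were then compared among themselves. In endoderm against hESC 4 of the 9 probes were called, both of T and both of HAND1, all higher in endoderm, against 38.4% of the 903 probes tested called higher. T probe 718 was 38.3-fold higher by group means (log2 5.13, SE 0.20, adjusted p = 2.37e-14 by edgeR's test). HAND1 was at least 2.56-fold higher for probe 338 and at least 5.46-fold higher for probe 339, since hESC had no read. The HAND1 calls were lost when all 48 libraries shared 1 fit (adjusted p = 0.248 and 0.146 by edgeR's test).

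In ectoderm against hESC 2 of the 9 probes were called, both of T and both higher in ectoderm, where 43.2% of the probes tested were called higher. T probe 718 gave 3.48, 5.14, 5.58 and 5.79 CPM in ectoderm replicates 1 to 4, 9 to 18 reads per library. Every ectoderm library lay above every hESC library for both probes, as was the case for 40.1% of the probes tested. The log2 difference of probe 718 was 1.97 (SE 0.29, adjusted p = 5.48e-06 by edgeR's test). Probe 719 had 5 to 15 reads per ectoderm library against 1 in each hESC library (adjusted p = 6.18e-06). Both calls were lost when all 48 libraries shared 1 fit (adjusted p = 0.270 and 0.222).

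Both T probes and both HAND1 probes were lower in ectoderm than in endoderm, 4 of the 9, where 39.9% of the probes tested were called lower in ectoderm. T probe 718 was 3.16 lower on the log2 scale (fitted value -3.16, SE 0.15, adjusted p = 1.85e-13 by edgeR's test). The HAND1 probes, at 0 reads in ectoderm, were at least 3.64-fold and 7.75-fold lower than in endoderm. When all 48 libraries shared 1 fit, these HAND1 calls were also lost (adjusted p = 0.194 and 0.106). The references therefore order T as mesoderm, endoderm, ectoderm and hESC with no overlap between neighbours, and HAND1 as mesoderm, endoderm and then ectoderm and hESC together at 0 reads. For CDX2 and FOXF1 only mesoderm lies above 3 reads per probe.

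In the EBs the 4 genes parted. HAND1 was read in nearly every library, T in most at low level, and CDX2 and FOXF1 in few. Summed over its probes, HAND1 passed 3 reads in 31 of 32 EB libraries and T in 21, while CDX2 did in 7 and FOXF1 in 6. The directed differentiations ended after 5 or 6 days and the EBs after 7, and of those references only ectoderm shared the E6 medium of the EBs. Culture time and medium cannot be told apart from EB formation in these comparisons.

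T ranged in CEPT EBs from 0 to a highest value of 8.80 CPM for probe 718, with a median of 1.18 CPM, and 6 of 16 libraries had no read of it. In Y27 EBs the same probe ranged from 0 to 15.7 CPM with a median of 0.317 CPM, and 8 of 16 libraries had no read. The highest Y27 libraries were replicates 16, 11 and 13, and the highest CEPT library was replicate 16, with wide overlap of the 2 groups. Probe 719 ranged from 0 to 9.51 CPM in CEPT EBs and from 0 to 13.2 CPM in Y27 EBs. Both T probes lay above 3 reads together in 10 of the 32 EB libraries, and only 1 of them did in 11.

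Every EB library lay below every endoderm library for T, as did 30.8% (CEPT) and 29.4% (Y27) of the probes tested. By edgeR's test T was lower than in endoderm by both probes in CEPT EBs (log2 -4.20, SE 0.80, adjusted p = 5.06e-05 for probe 718) and in Y27 EBs (log2 -3.97, SE 1.03, adjusted p = 0.00161). These were 2 of the 4 probes tested in each of these comparisons, where 33.4% (CEPT) and 35.1% (Y27) of the probes tested were called lower. The CDX2 and FOXF1 probes had too few reads to be tested there. T did not differ past the threshold from hESC in CEPT EBs (log2 1.08, SE 1.26, adjusted p = 0.443 for probe 718) or in Y27 EBs (log2 1.43, SE 1.61, adjusted p = 0.428). Against ectoderm the values for probe 718 were -1.05 (SE 1.03, adjusted p = 0.367) for CEPT EBs and -0.998 (SE 1.30, adjusted p = 0.495) for Y27 EBs. The standard errors against hESC and ectoderm exceed 1 on the log2 scale, and values of 1.08 and 1.43 were not called. Differences in T larger than 1 on that scale could therefore also be missed here.

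CDX2 was at or near 0. Probes 106 and 107 had no read in any of the 16 CEPT libraries, and probe 108 was at 0 in 12 of them, with a highest value of 1.85 CPM. In Y27 EBs probe 108 was at 0 in 13 libraries. The remaining Y27 libraries gave 1.41 CPM (replicate 16), 1.81 CPM (replicate 12) and 23.6 CPM (replicate 15). The value of replicate 15 rests on 11 reads, since that library is shallow. FOXF1 had the same shape, with 13 of 16 libraries at 0 for probe 1116 in each EB group. Its highest value was 2.88 CPM in CEPT EBs, and in Y27 EBs it was 53.7 CPM, again in replicate 15, from 25 reads.

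HAND1 spanned the widest range in CPM of the 4 genes in the EBs. Probe 339 ranged in CEPT EBs from 3.33 to 292 CPM with a median of 13.4 CPM, and in Y27 EBs from 0 to 2565 CPM with a median of 6.67 CPM. Probe 338 ranged from 0 to 110 CPM (median 3.17) in CEPT EBs and from 0 to 1224 CPM (median 6.48) in Y27 EBs. The highest CEPT library was replicate 16 and the highest Y27 library was replicate 15 for both probes, and replicate 2 came next in each group, at 91.3 CPM (CEPT) and 135 CPM (Y27) for probe 339. Y27 EB replicate 15 alone held 89.0% of the summed Y27 level of probe 339, and CEPT EB replicate 16 held 48.9% of the CEPT level. For probe 339, 9 of the 16 Y27 libraries lay within the range of the CEPT libraries, 6 lay below it and 1 above it.

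**Figure D2:**
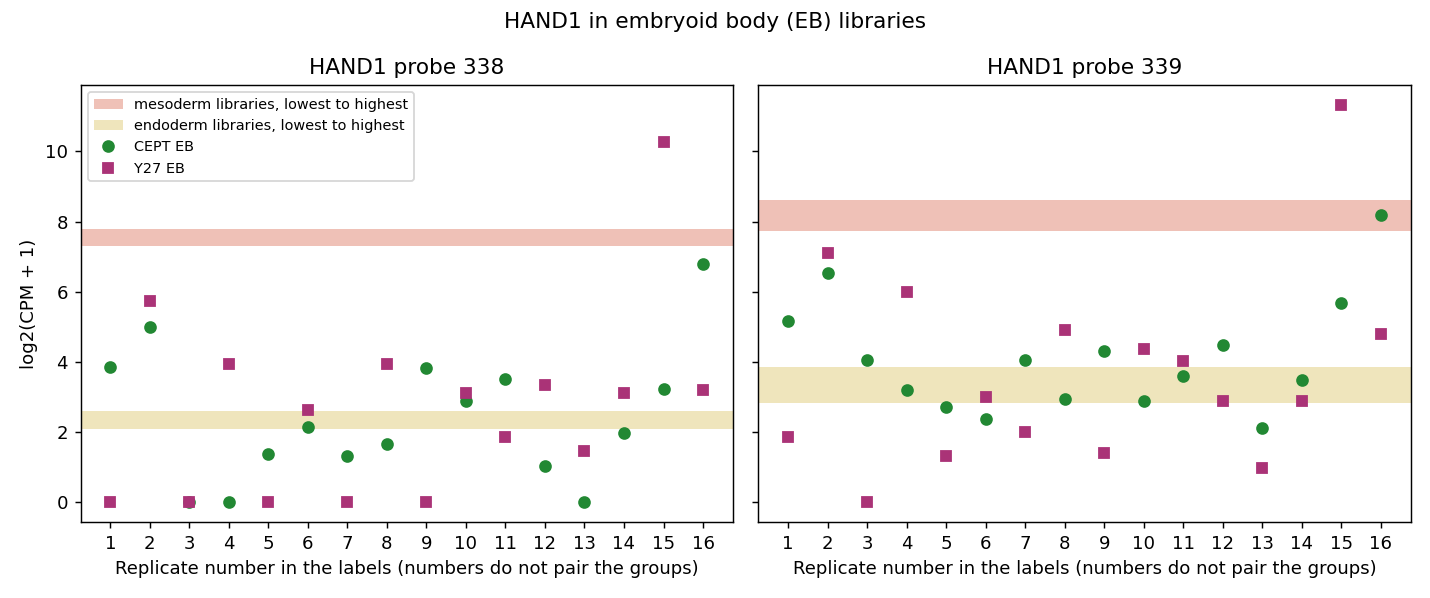
Level of the 2 HAND1 probes in each EB library, as log2(CPM + 1) on the vertical axis against the replicate number on the horizontal axis, with shaded bands from the lowest to the highest mesoderm and endoderm library. Y27 EB replicate 15 is above the mesoderm band for both probes, and CEPT EB replicate 16 lies within it for probe 339.

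Summed over both probes, HAND1 lay above every mesoderm library in 1 Y27 library, replicate 15, at 3789 CPM against a mesoderm maximum of 548 CPM. All 16 CEPT libraries and the other 15 Y27 libraries lay below every mesoderm library. Against endoderm, 7 CEPT and 6 Y27 libraries were above the highest endoderm library, and 5 CEPT and 6 Y27 libraries were below the lowest. The reading in Y27 EB replicate 15 comes from 1764 HAND1 reads in a library of 379810, so counting error alone is small beside it. That library had no read of T, and both HAND1 probes, both FOXF1 probes and CDX2 probe 108 were at their highest of all EB libraries there. Its values for CDX2 probes 106 and 107 rest on 1 and 2 reads, under the 3 reads that a count of 0 allows.

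Other genes also set Y27 EB replicate 15 apart. Summed over the listed lateral plate, cardiac and mesenchymal genes it gave 18356 CPM, the highest EB value, against a Y27 median of 12376 CPM. The cardiac muscle genes summed to 238 CPM (Y27 median 9.87), the endothelium and blood genes to 185 CPM (median 21.3), and the endoderm genes to 253 CPM (median 19.3). Single genes held most of the cardiac muscle, endothelium and endoderm sums, with TNNT2 at 176 CPM, KDR at 146 CPM and GATA6 at 153 CPM. KDR and GATA6 are also on the lateral plate, cardiac and mesenchymal list, so the lists are not separate readings. They are a small part of its 18356 CPM. KRT18, a keratin of simple epithelia and the 1 gene of the trophoblast and amnion list above 3 reads, gave 619 CPM (median 67.1). Each of these values was the highest of the Y27 libraries. The ectoderm genes summed to 11777 CPM against a median of 15755 CPM. The part of depth in these values was not tested. Nor was that of VIM, the vimentin gene, in the lateral plate, cardiac and mesenchymal sum. In mesoderm 1 VIM probe had a mean of 33109 CPM, and the list had a median sum of 39274 CPM.

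Between the EB groups 2 of the 9 probes, both of HAND1, had enough reads to be tested, and 0 were called, where 23.6% of the 867 probes tested were called. Probe 338 was lower in CEPT EBs by a fitted log2 value of -2.45 (SE 1.14, adjusted p = 0.124 by edgeR's test), and probe 339 by -2.07 (SE 1.03, adjusted p = 0.155). By unadjusted p under 0.05, edgeR called 1 of the 2 probes and DESeq2 called 0. These values rest on single libraries. Without Y27 EB replicate 15 they became 0.67 (SE 0.87, adjusted p = 0.638) and 0.84 (SE 0.72, adjusted p = 0.457), higher in CEPT EBs. Without CEPT EB replicate 16 they became -3.49 (adjusted p = 0.0285) and -2.98 (adjusted p = 0.0355), which passes the threshold. DESeq2, which replaced the HAND1 counts of these same 2 libraries as outliers, gave -0.28 and 0.0049.

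On the log2 CPM scale, where a single library weighs less, the means of HAND1 summed over probes were 4.58 ± 1.70 in CEPT EBs and 4.08 ± 3.08 in Y27 EBs (SD, n = 16 each). The difference of 0.50 had p = 0.583 in a two-sided permutation test with 100000 resamples, and 9 of 16 CEPT libraries lay above the Y27 median. Without Y27 EB replicate 15 the difference was 1.02 (p = 0.173), and without CEPT EB replicate 16 it was 0.21 (p = 0.817). T differed by 0.44 on this scale (1.70 ± 1.87 against 1.26 ± 2.05, p = 0.526), and adjusted over these 2 genes both p-values were 0.583. Neither gene separated the EB groups beyond the spread between libraries.

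**Figure D3:**
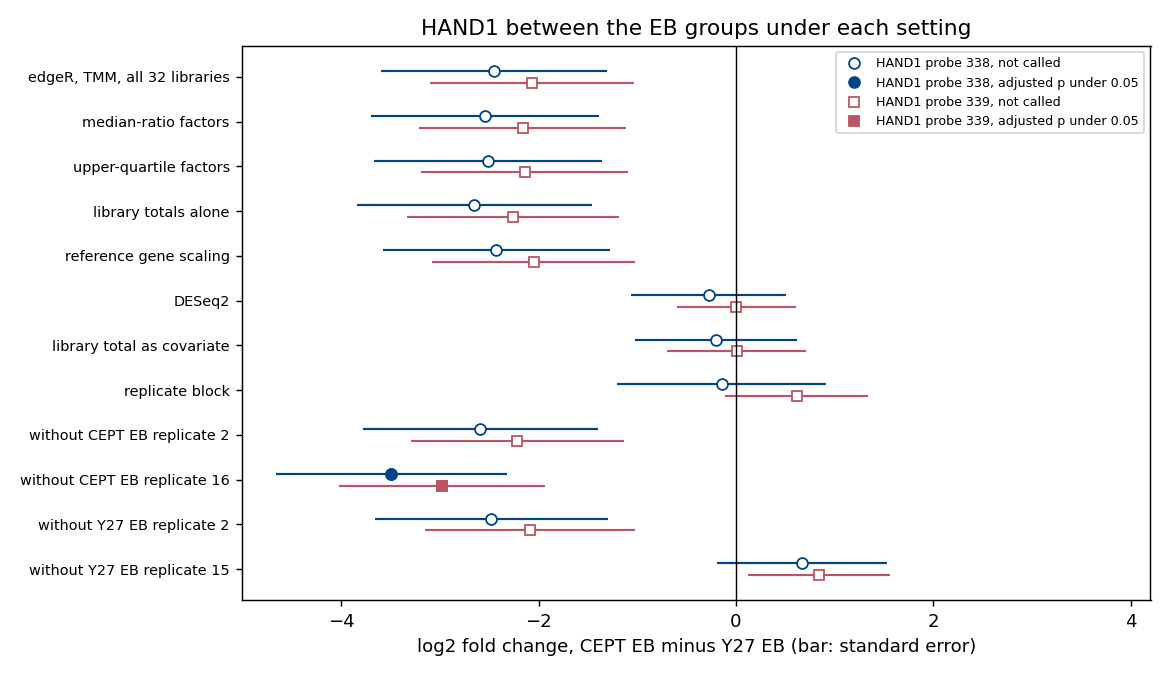
Fitted log2 fold change of the 2 HAND1 probes between the EB groups (horizontal axis, CEPT EB minus Y27 EB, bars are standard errors) under each setting named on the vertical axis; filled points pass adjusted p under 0.05. The value runs from -3.49 without CEPT EB replicate 16 to 0.84 without Y27 EB replicate 15, and scaling moves it far less than either library does.

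Against the references, HAND1 was called higher in CEPT EBs than in hESC by both probes, where 42.2% of the probes tested were called higher. These were 2 of the 4 probes of these genes that were tested, since those of CDX2 and FOXF1 had too few reads. Every CEPT library lay above the hESC libraries for probe 339, as in 26.7% of the probes tested, and 13 of 16 did for probe 338. By group means the difference was at least 7.94-fold for probe 338 (adjusted p = 0.0112 by edgeR's test) and at least 23.1-fold for probe 339 (adjusted p = 0.00124). Without CEPT EB replicate 16 these bounds were 3.93-fold and 12.6-fold, and both calls held (adjusted p = 0.00618 and 7.21e-05). Against ectoderm, also without HAND1 reads, both HAND1 probes were called higher too, again 2 of the 4 tested, where 38.4% of the probes tested were called higher.

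In Y27 EBs, 4 of the 9 probes were tested against hESC and against ectoderm, without those of CDX2 and FOXF1. HAND1 probe 339 alone was called higher than in hESC (adjusted p = 0.0384 by edgeR's test) and than in ectoderm (adjusted p = 0.0339). Of all probes tested 41.5% and 32.6% were called higher. Probe 339 had reads in 15 of 16 Y27 libraries and in none of these reference libraries. Probe 338 missed the threshold with adjusted p = 0.0593 and 0.0511. Without Y27 EB replicate 15 both probes passed in both comparisons, with adjusted p = 0.0246 and 0.00802 against hESC and 0.0166 and 0.00489 against ectoderm. Without Y27 EB replicate 1, 3, 5, 7, 9 or 11, probe 338 also passed against ectoderm. Leaving out any 1 of the 4 hESC libraries ended the call against hESC, and any 1 of the 4 ectoderm libraries that against ectoderm.

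All 9 probes were lower in CEPT EBs than in mesoderm, where 32.5% of the probes tested were called lower. The CDX2 and FOXF1 probes had enough reads to be tested here only through mesoderm. Their direction was thus set in advance, and their calls add nothing to that count. HAND1 fell least, with log2 values of -3.67 (SE 0.91, adjusted p = 0.00100) and -2.98 (SE 0.77, adjusted p = 0.00156), and CEPT EB replicate 16 reached the mesoderm range for probe 339. Without that library the values were -4.66 and -3.83 (adjusted p = 5.22e-06 and 1.75e-06). T fell by 8.82 (SE 0.57, adjusted p = 3.61e-12) for probe 718 on the log2 scale. CDX2 probes 106 and 107, without a read in these EBs, were at least 72.2-fold and 349-fold lower, and FOXF1 probe 1116 had a log2 value of -7.68 (SE 0.71, adjusted p = 9.38e-10). These p-values are from edgeR's test.

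In Y27 EBs 7 of the 9 probes were lower than in mesoderm, where 35.4% of the probes tested were called lower. The exceptions were the HAND1 probes, with log2 values of -1.37 (SE 1.64, adjusted p = 0.471) and -1.05 (SE 1.61, adjusted p = 0.574) by edgeR's test. Without Y27 EB replicate 15 they were -4.13 (adjusted p = 0.000381) and -3.61 (adjusted p = 0.000935), and all 9 probes were called. As in CEPT EBs, the CDX2 and FOXF1 probes had enough reads to be tested only through mesoderm, which set their direction in advance. Against endoderm HAND1 was not called in either EB group. The values for probe 339 were 2.26 (SE 1.12, adjusted p = 0.0703) in CEPT EBs and 4.36 (SE 2.40, adjusted p = 0.102) in Y27 EBs, and the latter was 1.33 (adjusted p = 0.326) without Y27 EB replicate 15.

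Listed genes of the neighbouring pathways were read to place the members. In mesoderm against hESC, 18 of the 21 tested probes of 8 lateral plate, cardiac and mesenchymal genes were higher and 3 lower. Their median log2 value was 4.45, where that of all probes tested was -0.18. With probes at 0 reads held at their bound the list median was 2.42, and the value over all probes was not bounded. The rise was not particular to mesoderm. Against hESC the list had 15 probes higher and 3 lower in ectoderm, and 13 higher and 3 lower in endoderm. Compared with ectoderm, 16 probes of the list were higher and 4 lower in mesoderm. The same list against endoderm had 8 probes higher and 13 lower in mesoderm, with a median of -1.08. Against hESC, SNAI2, a repressor of epithelial genes, was at least 34.95-fold higher, GATA6, a factor of endoderm and cardiac mesoderm, at least 23.4-fold, and VIM, the mesenchymal filament vimentin, rose by 6.31 on the log2 scale (SE 0.10, adjusted p = 1.20e-19 by edgeR's test). The receptor gene KDR fell, with a log2 value of -3.91 (adjusted p = 5.06e-13), and CDH5, MEF2C and NKX2-5 stayed at 3 reads or fewer. Of the primitive streak and mesendoderm genes other than T, 2 of 11 probes were higher and 7 lower in mesoderm than in hESC, where 34.0% of all probes were called higher and 43.5% lower. LEFTY1, an inhibitor of NODAL signalling, was at 76.6 CPM in hESC and 0.361 CPM in mesoderm, and EOMES, a T-box factor of the streak, gave 2.36 CPM in mesoderm and was not called (adjusted p = 0.0533).

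Among 16 tested probes of BMP and WNT pathway genes, 6 were higher in mesoderm than in hESC and 7 lower, shares near those of all probes. MSX1, a homeobox target of BMP signalling, rose from 2.26 to 4370 CPM (adjusted p = 6.06e-19), while SFRP1, a secreted WNT antagonist, went from 2230 to 601 CPM (adjusted p = 4.69e-08). DLL1, the single paraxial mesoderm gene on the panel, was higher than in hESC by all 3 probes and lower than in ectoderm by all 3. CYP26A1, which degrades retinoic acid, was lower by all 3. All 24 pluripotency probes were lower in mesoderm, among them NANOG (1982 CPM in hESC, 3.47 CPM in mesoderm). Outside the members, MSX1, SNAI2 and VIM were high in mesoderm, while the cardiac factor genes MEF2C and NKX2-5 were near 0. MSX1, SNAI2 and VIM were named for the size of their change, so they are no independent check of the label. Of the 4 tested cardiac muscle probes 3 were higher than in hESC, with MYH6 at least 53.4-fold and NPPB at least 3.74-fold higher. The 1 of TNNT2 was lower, with no read in mesoderm. NPPB was not particular to mesoderm, with medians of 6.76 CPM there, 9.62 CPM in ectoderm and 16896 CPM in endoderm. Against ectoderm 2 of these 4 probes were higher in mesoderm and 2 lower, and against endoderm 2 were higher and 1 lower.

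Between the EB groups, 0 of 23 tested probes of the lateral plate, cardiac and mesenchymal genes were higher in CEPT EBs and 5 were lower, with a median log2 value of -0.18 against -0.04 over all 867 probes. For the BMP and WNT pathway 1 of 14 was higher and 4 lower. The streak genes had 1 of 2 probes called, LHX1, a homeobox factor of the streak, at 4.82 CPM in CEPT EBs and 2.18 CPM in Y27 EBs (adjusted p = 0.0445). NPPB, a natriuretic peptide gene of heart muscle, was at 11.7 CPM in CEPT EBs and 2.89 CPM in Y27 EBs (adjusted p = 0.00724), while TNNT2 of the same list, at 5.14 and 11.9 CPM, was not called (adjusted p = 0.2496). Of 23 tested ectoderm probes 3 were higher in CEPT EBs, all of OTX2, an anterior neural factor, and 2 were lower, both of PAX3, a neural crest and dorsal neural factor. OTX2 was at 9.57 and 3.93 CPM by the probe with the largest change (adjusted p = 0.00906). Of the pluripotency probes 0 were higher and 1 lower, and of the 6 tested endoderm probes and 4 tested endothelium and blood probes 0 were called. By edgeR's test 92 of all 867 probes were higher and 113 lower in CEPT EBs.

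Since HAND1 varied so widely between EB libraries, its level was compared with that of 50 listed genes across the 32 EB libraries, with group means removed, on log2 CPM summed over probes. With p-values from 100000 permutations within the groups, 9 genes were positively and 1 negatively correlated at an adjusted p under 0.05. GATA6 had r = 0.71 and rho = 0.68 (adjusted p = 0.000167 and 0.000833). TNNT2, the cardiac troponin T gene, had r = 0.77 and rho = 0.63 (adjusted p = 0.000167 and 0.00262). KDR, the VEGF receptor of endothelial and cardiac precursors, had r = 0.70 and rho = 0.74 (adjusted p = 0.00125 and 0.000833). KRT18 had r = 0.80 and rho = 0.77 (adjusted p = 0.000167 and 0.0005). The adjusted values of 0.000167 and 0.0005 come from the smallest p that these permutations can give.

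These 4 genes also correlated with HAND1 within each EB group, with r from 0.59 to 0.84 in CEPT EBs and from 0.74 to 0.87 in Y27 EBs. The 2 libraries farthest from the HAND1 median were Y27 EB replicates 3 and 15. Without them r was 0.59 for GATA6, 0.68 for TNNT2, 0.68 for KDR and 0.69 for KRT18. By permutation the adjusted p was 0.00762 for GATA6 and 0.00200 for each of TNNT2, KDR and KRT18. These were the 4 genes under 0.05 for r, for rho and without those libraries. PDGFRA, a receptor of mesenchymal and cardiac precursors, had r = 0.55, and r = 0.48 without them (adjusted p = 0.0517), which misses the threshold. NPPB had r = 0.57, and r = 0.47 without them (adjusted p = 0.0517). MSX1 had r = 0.69, which became 0.29 without them (adjusted p = 0.363) and no longer passed. The same held for ID1 (0.49 to 0.30) and the endothelial cadherin CDH5 (0.44 to 0.21). Within CEPT EBs, which hold neither of those libraries, r was 0.55 for MSX1, 0.48 for ID1 and 0.34 for CDH5. The neural gene MAP2 was the negative one, with r = -0.65 and -0.53 without those 2 libraries (adjusted p = 0.0282), but its rho of -0.44 had adjusted p = 0.101. Libraries differ in depth and composition, whose part in these relations was not tested.

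**Figure D4:**
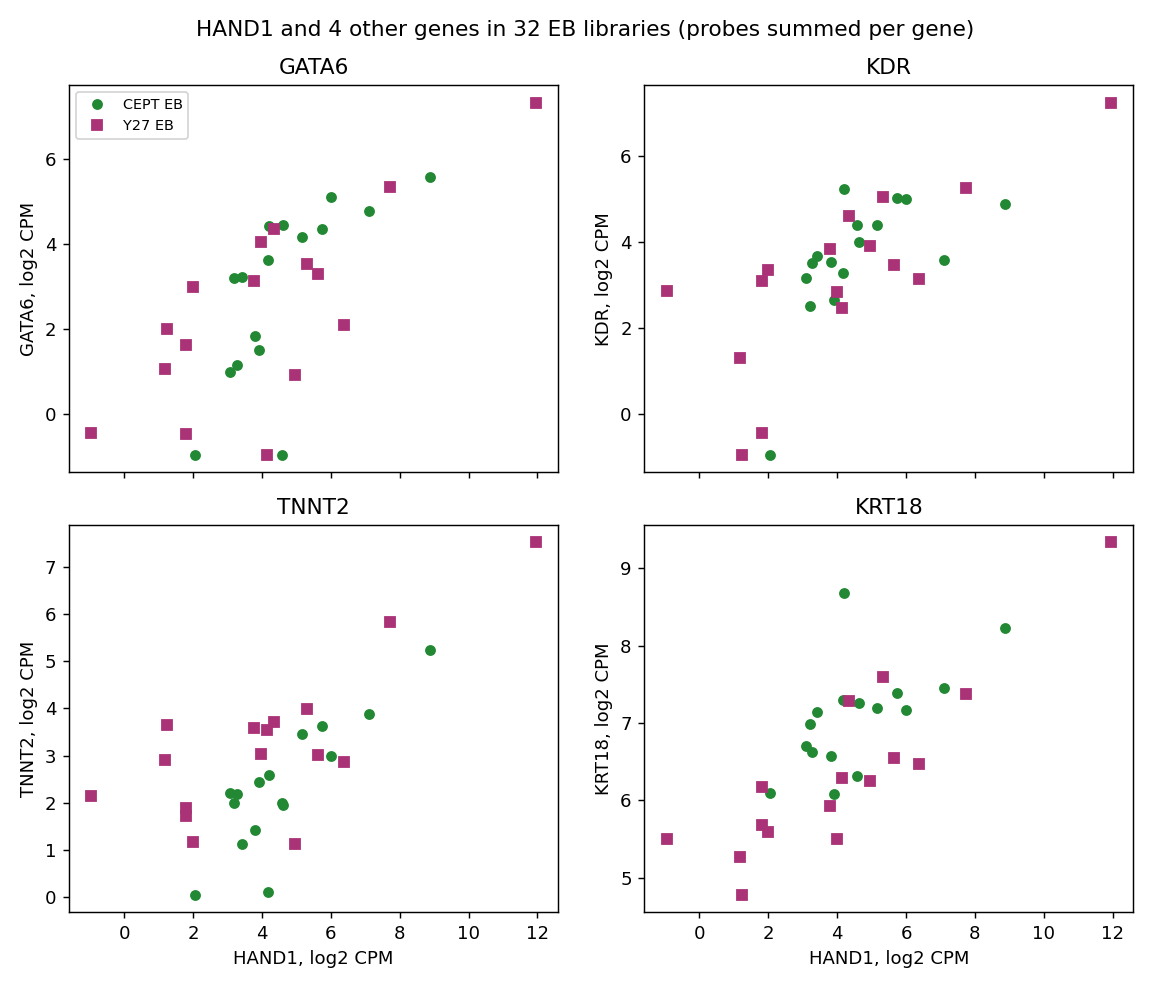
Level of GATA6, KDR, TNNT2 and KRT18 (vertical axes, log2 CPM, probes summed) against HAND1 (horizontal axis, log2 CPM) in the 32 EB libraries, coloured by EB group. The point at the upper right of each panel is Y27 EB replicate 15, and r without it and the other most distant library lies between 0.59 and 0.69.

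The levels of these genes differed widely between the references, and mesoderm was not the highest for any of the 4. GATA6 had a median of 4263 CPM in endoderm and 109 CPM in mesoderm, TNNT2 had no read in mesoderm, and KDR had a median of 288 CPM in hESC and 27.3 CPM in mesoderm. In Y27 EB replicate 15 they reached 153, 176 and 146 CPM, each the highest of all EB libraries, and KRT18 reached 619 CPM against 1670 CPM in mesoderm by median. CEPT EB replicate 16 ranked 2nd for GATA6, 3rd for TNNT2 and KRT18 and 7th for KDR among the 32.

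No relation of T with HAND1 was detectable across the same libraries. Pearson's r was 0.08 (adjusted p = 0.834) and Spearman's rho 0.18 (adjusted p = 0.374), over 6 pairs of genes tested, and r was 0.04 without the 2 libraries farthest from the T median. Within groups r was 0.37 in CEPT EBs and -0.07 in Y27 EBs. The pairs with CDX2 or FOXF1 are not read, because those genes passed 3 reads in only 7 and 6 of the 32 libraries.

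Finally, the genes whose pattern over the 6 group means was most like that of each member were taken from 852 probes with enough reads. For T probe 718 they were COLEC10 (r = 0.974), ODC1 (0.945) and SCRN1 (0.927), with COLEC10 at 52.2 CPM in mesoderm and 2.17 CPM in endoderm. CDX2 probe 108 and FOXF1 probe 1116 shared theirs. These were MYH6 (r = 0.996 and 0.995), a cardiac myosin, MSX1 probe 472 (0.994 and 0.990) and GAD1 (0.987 and 0.990). Like CDX2 and FOXF1, these probes were high in mesoderm and near 0 elsewhere. MSX1 probe 473 was not near 0 in the EBs, with means of 35.8 CPM (CEPT) and 66.4 CPM (Y27). MYH6 was at 86.2 CPM in mesoderm and 0.127 CPM in endoderm. For HAND1 probe 339 they were RAD17 (0.930), NCAM1 (0.911) and HAPLN1 (0.909), and NCAM1 was at 189 CPM in mesoderm and at 62.9 and 75.2 CPM in the CEPT and Y27 EBs. With 6 points, the means of log2 CPM of 6 groups that share libraries between genes, these are descriptions.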

How the data were processed

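RASL-Seq read counts per probe were deposited by the authors as whole numbers, raw per probe and library. Per the submitters' processing notes the build was hg38 and DESeq2 was used; the aligner is not given in the sources used here. The deposited merged table repeats the 48 libraries exactly and holds 16 further columns that match no sample label and were not used.

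Counts were tested with edgeR 4.0.16 (quasi-likelihood, robust, filterByExpr, TMM, R 4.3.3), with Benjamini-Hochberg adjustment over all probes tested and a threshold of 0.05. The 16 reference libraries shared 1 fit, the 32 EB libraries another, and each EB group was fitted with each reference separately, giving 15 comparisons. Where a probe had 0 reads in a group, folds are lower bounds against 3 reads per library. Log2 CPM used a prior count of 2. DESeq2 1.42.0, other scalings and filters, a replicate block and left-out libraries were alternatives. The script was tested on simulated counts.

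Members and lists were chosen with earlier results of these data known. The named genes are the largest changes of each list (4 against hESC, 2 between EB groups) and the 3 probes most like each member over 6 group means, among probes with a mean of at least 50 reads in a group; other genes named were chosen after their values were seen. The relations with HAND1 and the permutation test between EB groups were added after its spread was seen. Depth was 379810 to 5577868 reads per library.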

Additional observations from a re-analysis of the deposited data

Results flagged for a closer look

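In 16 combinations of a probe and a reference group with 4 libraries, Dixon's criterion was applied to log2 levels. In 3 of them 1 library lay far from the others, where chance gives about 1 in 20. CDX2 probe 107 in mesoderm replicate 3, which stood far above the other replicates by CPM, was not flagged on that scale. T probe 718 was highest in mesoderm replicate 3 at 1333 CPM, with the next library at 1108 CPM. FOXF1 probe 1115 was lowest in the same library at 56.0 CPM, with the next at 79.9 CPM. FOXF1 probe 1116 was highest in mesoderm replicate 2 at 89.8 CPM, with the next at 80.8 CPM. The second probe of each gene did not stand apart in that library.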

How the results depend on the processing

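Counts of probes called kept within 1.5 times of the reported ones for mesoderm against each reference under every setting run except summing probes per gene, which leaves 4 genes and called all 4 each time. Summed per gene, the calls were 1 in ectoderm against hESC, 2 in endoderm against hESC, 2 in ectoderm against endoderm, 1, 1, 4 and 1 in CEPT EBs against hESC, ectoderm, mesoderm and endoderm, and 3 and 1 in Y27 EBs against mesoderm and endoderm. With all 48 libraries in 1 fit, calls were 0 in ectoderm against hESC, 2 in endoderm against hESC, 2 in ectoderm against endoderm, 1 in CEPT EBs against hESC, and 2 and 2 in Y27 EBs against hESC and ectoderm. For Y27 EBs against hESC the 1 call became 2 with reference gene scaling, 2 with DESeq2, 2 without the shallow library, 3 with the replicate block (1 of them T, called lower), and 0 to 2 with a library left out. Against ectoderm it became 2 with median-ratio factors, 2 with upper-quartile factors, 2 with DESeq2, 2 without the shallow library, 4 with the replicate block, and 0 to 2 with a library left out. CEPT against Y27 EBs ranged from 0 to 2 calls with a library left out. The cause of these shifts was not tested.

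Directions turned for HAND1 between the EB groups. Without the shallow library, Y27 EB replicate 15, the log2 values were 0.67 and 0.84, and without CEPT EB replicate 16 they were -3.49 and -2.98. For probe 339 they were 0.0049 with DESeq2, 0.0076 with the library total as covariate and 0.62 with the replicate block. The replicate block also turned T against hESC in CEPT EBs (-0.96 and -0.15) and in Y27 EBs (-5.39 and -1.02) and HAND1 probe 338 in CEPT EBs against endoderm (-0.076). The value of -5.39, for T probe 718, passed the threshold as lower in Y27 EBs (adjusted p = 0.0345 by edgeR's test with the block). In no comparison did every same-numbered pair correlate above 0.1, the criterion for pairing. Of 16 CEPT and Y27 pairs 3 did and 1 was its own best match, while 3 of 4 did in ectoderm against endoderm, where 4 of 4 were their own best match, and 3 of 4 in mesoderm against ectoderm. The block changed no count of calls by over 1.5 times other than the 2 given. Reference gene scaling moved the median log2 value of all probes by between -0.36 and 1.54 and turned no member. Of 50 genes compared with HAND1, 10 passed, 6 without the shallow library and 5 without the 2 farthest libraries, alternatives chosen after seeing the data. Requiring 10 or more reads in all libraries left no probe of the 4 genes in any comparison. Depth limits T, CDX2 and FOXF1 in the EBs, where most values are a few reads.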

Other observations

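Low values in the EB libraries were often all or nothing. T probe 719 had 0 reads in 8 CEPT and 10 Y27 libraries, and in every other EB library it had 6 reads or more. HAND1 probe 338 had 0 reads in 3 CEPT and 5 Y27 libraries, although probe 339 of the same gene had 62 reads in CEPT EB replicate 3 and 32 reads in CEPT EB replicate 4. In hESC, by contrast, probe 719 had 1 read in each library.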
